A study of Homo sapiens with 12 samples.

Results

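The 48 genes described here lie on the long arm of human chromosome 14 and were taken by their symbols. Genes with known roles in the interferon response were left out. The members run from PRPF39, which is nearest the centromere among them, to JAG2 near the end of the chromosome. They are 48 of the 27685 genes in the deposited table, and all 48 were among the 15769 genes that passed the filter on low counts. The choice was made knowing that many genes of this region differed between the hairpin lines, so every difference between lines given for the 48 genes is a description. No member's p-value is printed for it, and counts past the threshold of that contrast stand beside the share of all tested genes without being read as support. The question was how uniform the difference between the lines is, from gene to gene and across the 4 groups.

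The cells were U251, an established human glioblastoma line, at passages 14 to 18. The 4 groups were shINCA1 cells given interferon gamma (IFNγ) for 24 h, shCTRL cells given IFNγ for 24 h, untreated shINCA1 cells and untreated shCTRL cells, with 3 libraries in each. shINCA1 cells carry a short hairpin RNA against the long noncoding RNA INCA1 and shCTRL cells a control hairpin. The labels name 1 line for each hairpin, so the hairpin, its target and any other feature of that line cannot be told apart, and nothing in the labels says that the 3 libraries of a group are separate cultures. P-values therefore measure the spread between these libraries, which may be technical. The symbol INCA1 is also that of a protein-coding gene, so the level of the hairpin's target was not checked here.

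Genes that are neighbours on a chromosome share no common pathway by default, and the 48 genes serve many basic functions of the cell, among them signalling, RNA processing, cytoskeletal transport, DNA repair and membrane traffic. IFNγ acts through its receptor and raises transcription of its target genes. The gamma-activated site (GAS) is the promoter element known for direct targets, and the interferon-stimulated response element (ISRE) is bound by interferon regulatory factors.

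The letters of both elements were searched on both strands in the 250 bases before the RefSeq start of each gene (GRCh38.p14), as TTCNNNGAA for GAS and, for ISRE, as GAAA followed by NN and GAAA, with N any base. GAS letters were present for 2 of the 45 members with an entry, which is 4.44%, against 8.09% of all 27305 genes with an entry. ISRE letters were also present for 2 of 45, or 4.44%, against 3.71% of all genes. PRPF39, CNIH1 and MPP5 were not among the entries. Of 10 interferon-role genes of chromosome 14 with an entry, 2 held GAS letters and 2 held ISRE letters, IFI27 being among both. The matches below show the 3 members that hold either element beside 2 interferon-role genes, with the element in capitals and up to 10 bases on either side. All stretches are written 5′ to 3′ along the gene's own strand. A match is a description of letters, not of a bound site.
IRF9, GAS, chr14:24161192-24161220, plus strand: accacgtgatTTCTGGGAAaaggccctcc
PSME2, ISRE, chr14:24146619-24146648, minus strand: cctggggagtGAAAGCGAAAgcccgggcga
MAP3K9, GAS, chr14:70783613-70783641, minus strand: tcactgttcaTTCCTTGAAgctccaattt
MLH3, GAS, chr14:75051548-75051576, minus strand: taggtaccggTTCACTGAAccctgggatg
MLH3, ISRE, chr14:75051652-75051681, minus strand: gaaaaaaaagGAAAGGGAAAacacgggaaa
ZFP36L1, ISRE, chr14:68796244-68796263, minus strand: ctccgaagacTTTCACTTTC

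The promoters of ARF6 and DAAM1 are printed because these members had the IFNγ responses with the smallest adjusted p among the members that rose and fell in shCTRL cells. For each, the stretch covers 250 to 31 bases before a RefSeq start; DAAM1 has 2 starts in the table, and the first in map order is shown. Neither stretch holds the letters of either element, so it is all in lower case.
ARF6, chr14:49892832-49893051, plus strand: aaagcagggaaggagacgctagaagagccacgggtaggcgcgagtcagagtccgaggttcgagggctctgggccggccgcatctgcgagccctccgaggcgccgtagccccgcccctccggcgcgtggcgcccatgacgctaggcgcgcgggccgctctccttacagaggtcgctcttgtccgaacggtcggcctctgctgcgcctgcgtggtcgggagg
DAAM1, chr14:59188417-59188636, plus strand: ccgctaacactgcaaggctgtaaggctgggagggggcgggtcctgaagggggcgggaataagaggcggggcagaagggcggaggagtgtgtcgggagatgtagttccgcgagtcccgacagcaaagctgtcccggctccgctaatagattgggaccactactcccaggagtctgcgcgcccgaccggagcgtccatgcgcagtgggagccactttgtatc

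Libraries held 46525032 to 66242859 estimated counts in all. Levels are given in CPM, the library-scaled count per 1000000 counts, which compare libraries for 1 gene but not genes with each other, since they are not divided by gene length. The glioma marker list summed to 2800 to 2900 CPM in shINCA1 libraries and 3340 to 3480 CPM in shCTRL libraries. Within it, GFAP, S100B, OLIG2 and AQP4, which define glial cells, each stayed below 3 CPM. Epithelial markers, almost all from the keratin gene KRT18, summed to 235 to 263 CPM in shINCA1 libraries and 86.1 to 93.4 CPM in shCTRL libraries. Among the immune markers AIF1 and CD3E were at 0 in every group, while CD68, a lysosomal protein of macrophages, had 9.61 to 10.7 CPM with IFNγ and 9.25 to 9.70 CPM untreated in shINCA1 libraries. In shCTRL libraries CD68 had 13.2 to 14.0 CPM with IFNγ and 11.6 to 13.3 CPM untreated, so it was lower in shINCA1 cells by a log2 difference of -0.41 and -0.42. The endothelial list summed to at most 2.69 CPM. Within the glioma list the genes went opposite ways between the lines. VIM, which makes up most of the sum, was at -0.42 with IFNγ and -0.48 untreated. NES was at -2.00 and -2.03 and SOX2 at -0.29 and -0.44, while CD44 was at 0.53 and 0.43. Of the low-level genes, GFAP was at -1.05 and -2.18, S100B at -1.97 and -2.88 and OLIG2 at 2.74 and 1.92. In shCTRL cells OLIG2 averaged 0.169 CPM with IFNγ and 0.27 CPM untreated, so its differences rest on few counts. These markers moved with the line, and their part in the results was not tested.

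The difference between lines was mostly in 1 direction and of moderate size. Of the 48 genes, 44 were higher in shINCA1 cells in both treatments, ZFP36L1 and EML1 were lower in both, and DLGAP5 and POMT2 had opposite signs in the 2 treatments, with POMT2 so near 0 untreated that its sign turned under upper-quartile factors. The median log2 difference, shINCA1 minus shCTRL, was 0.53 with IFNγ (quartiles 0.33 and 0.77) and 0.47 untreated (quartiles 0.28 and 0.76). Over all tested genes the median was 0.00 with IFNγ and -0.01 untreated. In bulk RNA, fewer cells of a kind and less RNA per cell cannot be told apart.

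In the edgeR quasi-likelihood fit over all tested genes, with a Benjamini-Hochberg adjusted p of at most 0.05, 43 members were past the threshold as higher in IFNγ-treated shINCA1 cells, where 28.7% of all tested genes were. EML1 was the 1 member past it as lower, where 30.2% of all tested genes were. In untreated cells 41 members were past it as higher, against 27.4% of all tested genes, and 0 as lower, against 29.5%. With IFNγ the 3 shINCA1 libraries lay above the 3 shCTRL libraries for 44 members (32.7% of all tested genes) and below them for EML1 (33.8% of all tested genes). Untreated they lay above for 41 members (30.4%) and below for 0 (32.4%). These counts describe the contrast that the choice of genes used, and nothing is read from them.

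Library by library the picture was even. On the log2 scale, relative to each gene's mean over the 12 libraries, the median of the 48 genes was 0.259, 0.303 and 0.295 in the IFNγ-treated shINCA1 libraries, against -0.291, -0.248 and -0.246 in the IFNγ-treated shCTRL libraries. It was 0.217, 0.265 and 0.246 in the untreated shINCA1 libraries, against -0.234, -0.273 and -0.231 in the untreated shCTRL libraries. The 6 shINCA1 libraries lay above the 6 shCTRL libraries without overlap in this median. For 37 of the 48 genes all 6 shINCA1 libraries lay above all 6 shCTRL libraries, which held for 21.6% of all tested genes. The 11 exceptions were ZFP36L1, EML1, DLGAP5, POMT2, PPP2R5C, PPP2R5E, ARID4A, FOXN3, MAX, DAAM1 and DYNC1H1.

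**Figure D1:**
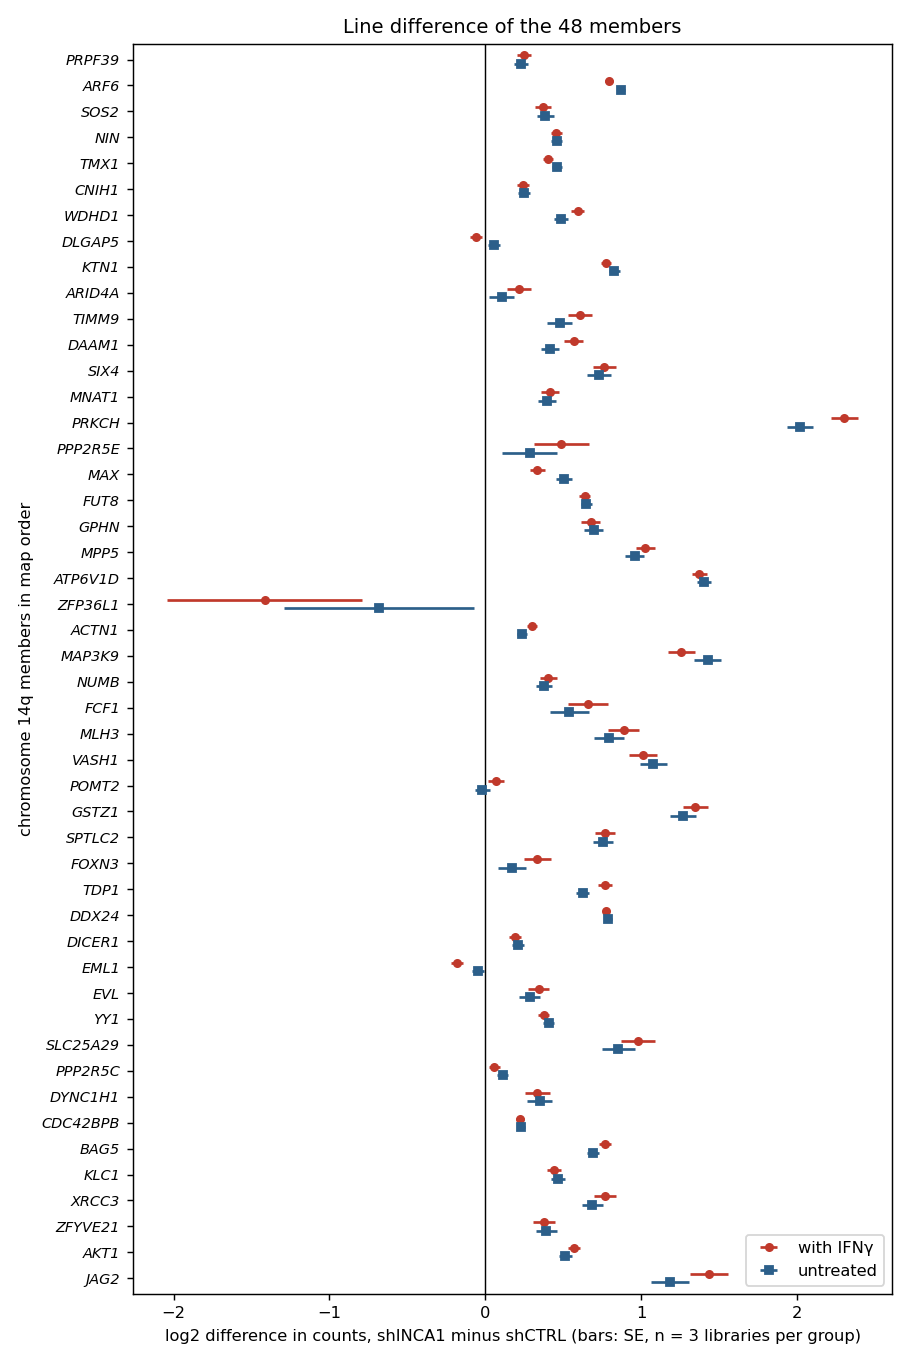
Log2 difference in counts, shINCA1 minus shCTRL, for each of the 48 genes in map order, with IFNγ (red circles) and untreated (blue squares); bars are standard errors and each group has 3 libraries. Most genes lie right of 0 at nearly the same place in both treatments, PRKCH lies farthest right at 2.31 and 2.02, and ZFP36L1 lies left of 0 with the widest bars.

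Size varied far more between genes than its standard error. The log2 difference had an SD of 0.527 over the 48 genes with IFNγ and 0.447 untreated, against a median standard error of 0.0536 and 0.0534. In both treatments 25 members lay between 0.25 and 0.8, and 6 lay above 1: PRKCH, ATP6V1D, MAP3K9, JAG2, GSTZ1 and VASH1. The edges 0.25 and 0.8 serve description only, and no test was made of the spread.

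Among the signalling genes, PRKCH, the eta member of the protein kinase C family, differed most. It had 17.5, 15.4 and 15.8 CPM in IFNγ-treated shINCA1 cells, against 3.09, 3.21 and 3.54 CPM in IFNγ-treated shCTRL cells. Untreated shINCA1 cells had 16.8, 19.5 and 20.0 CPM, against 4.62, 4.56 and 4.67 CPM in untreated shCTRL cells. The lines did not come near each other, and the fold difference was 4.94 with IFNγ and 4.06 untreated.

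MAP3K9, a kinase upstream of the JNK pathway, had 26.6, 29.5 and 27.9 CPM in IFNγ-treated shINCA1 cells and 11.1, 11.8 and 12.1 CPM in IFNγ-treated shCTRL cells. Its untreated levels were 30.3, 30.2 and 33.5 CPM in shINCA1 cells and 10.2, 11.7 and 13.1 CPM in shCTRL cells. Every shINCA1 library was above every shCTRL library, at log2 differences of 1.26 ± 0.09 with IFNγ and 1.43 ± 0.09 untreated (± standard error, n = 3 each). JAG2, a ligand of Notch receptors and the last member on the map, was 1.44 ± 0.12 with IFNγ and 1.19 ± 0.12 untreated. NUMB, an inhibitor of Notch signalling, had smaller differences of 0.40 ± 0.05 and 0.38 ± 0.05. VASH1, an enzyme that trims the end of tubulin, was at 1.01 ± 0.09 and 1.08 ± 0.09, and MPP5, a scaffold of apical polarity, at 1.03 ± 0.06 and 0.96 ± 0.06.

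The other signalling genes lay lower. AKT1, the kinase at the centre of growth factor signalling, had 297, 299 and 283 CPM in IFNγ-treated shINCA1 cells, against 195, 197 and 201 CPM in IFNγ-treated shCTRL cells. In untreated cells it had 292, 276 and 290 CPM in shINCA1 and 213, 193 and 194 CPM in shCTRL. The fold was 1.48 with IFNγ and 1.43 untreated, close to the middle of the 48 genes. The small GTPase ARF6, which recycles membrane from endosomes, was at 1.73-fold and 1.83-fold. SOS2, which loads Ras with GTP, had log2 differences of 0.37 and 0.39, and CDC42BPB, a kinase acting downstream of Cdc42, had 0.22 and 0.23.

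The pair of phosphatase subunits in this group differed in their spread. PPP2R5C, a regulatory subunit of protein phosphatase 2A, had 121, 120 and 122 CPM in IFNγ-treated shINCA1 cells and 118, 114 and 116 CPM in IFNγ-treated shCTRL cells. It had 120, 128 and 130 CPM in untreated shINCA1 cells and 114, 115 and 121 CPM in untreated shCTRL cells, so the untreated groups overlapped. Its log2 differences of 0.06 ± 0.03 and 0.11 ± 0.03 were among the smallest of the list. PPP2R5E, another such subunit, had 1 low library in each of 2 groups: 43.3 CPM beside 66.7 and 69.3 CPM in untreated shINCA1 cells, and 35.3 CPM beside 56.0 and 52.3 CPM in IFNγ-treated shCTRL cells. Its differences of 0.49 ± 0.18 and 0.28 ± 0.18 carry large errors and rest on single libraries. With IFNγ the difference was 0.32 without the first shCTRL library. Untreated it was 0.47 without the first shINCA1 library and 0.16 without the third. Over all 12 signalling genes the median was 0.68 with IFNγ and 0.69 untreated.

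**Figure D2:**
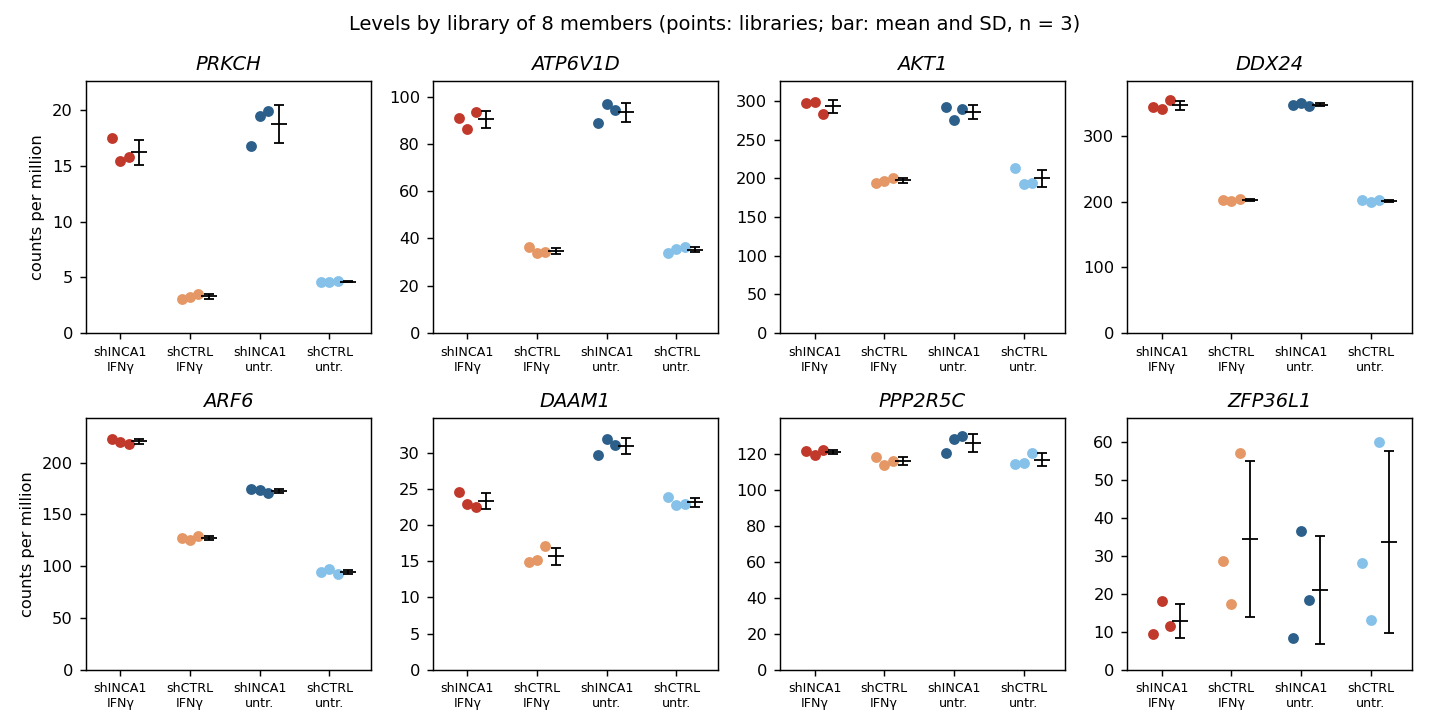
Levels in CPM of 8 members in every library (points) with the mean and SD of the 3 libraries of a group (black bars), for IFNγ-treated shINCA1, IFNγ-treated shCTRL, untreated shINCA1 and untreated shCTRL cells from left to right. The shINCA1 libraries lie above the shCTRL libraries of the same treatment in 6 panels, PPP2R5C is nearly level, and ZFP36L1 libraries of 1 group are scattered from 13.1 to 59.9 CPM.

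The 12 genes of membranes, metabolism and protein folding had a median of 0.66 with IFNγ and 0.67 untreated. ATP6V1D, a subunit of the vacuolar proton pump, had 91.1, 86.5 and 93.7 CPM in IFNγ-treated shINCA1 cells, against 36.3, 34.0 and 34.4 CPM in IFNγ-treated shCTRL cells. Untreated shINCA1 cells had 89.1, 96.8 and 94.4 CPM and untreated shCTRL cells 34.0, 35.8 and 36.2 CPM. The fold of 2.59 with IFNγ and 2.64 untreated was nearly the same in both treatments. GSTZ1, an enzyme of tyrosine breakdown, had folds of 2.55 and 2.41. SLC25A29, a mitochondrial carrier of basic amino acids, had log2 differences of 0.98 ± 0.11 and 0.85 ± 0.11, and SPTLC2, a subunit of the enzyme that starts sphingolipid synthesis, had 0.77 ± 0.06 and 0.76 ± 0.06.

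BAG5, a cochaperone of the heat shock protein HSP70, was at 0.77 with IFNγ and 0.69 untreated. Differences between 0.6 and 0.7 in at least 1 treatment were seen for GPHN, a scaffold of inhibitory synapses that also makes the molybdenum cofactor, for FUT8, which adds core fucose to glycoproteins, and for TIMM9, a chaperone of mitochondrial import. TMX1, a thioredoxin-like protein of the endoplasmic reticulum, had 0.40 and 0.46, ZFYVE21, an endosomal protein, 0.38 and 0.39, and CNIH1, which helps cargo leave the endoplasmic reticulum, 0.24 and 0.25. POMT2, which starts O-mannosylation of proteins, was the exception of this group. It averaged 40.1 ± 1.67 CPM in IFNγ-treated shINCA1 cells and 38.2 ± 1.03 CPM in IFNγ-treated shCTRL cells (SD, n = 3 each). Untreated it averaged 40.8 ± 2.52 CPM in shINCA1 and 41.3 ± 0.974 CPM in shCTRL cells, and the libraries overlapped in both treatments.

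The 4 genes of DNA replication and repair were all higher in shINCA1 cells, with a median of 0.77 with IFNγ and 0.66 untreated. MLH3, a mismatch repair protein and the member with the lowest level, had 6.20, 5.91 and 6.35 CPM in IFNγ-treated shINCA1 cells, against 3.51, 3.04 and 3.44 CPM in IFNγ-treated shCTRL cells. Untreated, it had 6.08, 6.55 and 5.62 CPM in shINCA1 cells and 3.18, 3.50 and 3.83 CPM in shCTRL cells. The fold was 1.85 with IFNγ and 1.74 untreated. XRCC3, a protein of recombination repair, had 1.70-fold and 1.61-fold, TDP1, which removes trapped topoisomerase from DNA, 1.70-fold and 1.54-fold, and WDHD1, a replication fork protein, 1.51-fold and 1.40-fold.

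The 11 genes of transcription and RNA processing had a median of 0.34 with IFNγ and 0.39 untreated. DDX24, an RNA helicase, had 345, 341 and 355 CPM in IFNγ-treated shINCA1 cells, against 202, 201 and 204 CPM in IFNγ-treated shCTRL cells. It had 348, 350 and 347 CPM in untreated shINCA1 cells and 202, 199 and 202 CPM in untreated shCTRL cells. Its libraries differed little within groups, and its log2 difference was 0.78 ± 0.02 with IFNγ and 0.79 ± 0.02 untreated. SIX4, a homeobox factor, had 0.76 and 0.73, and FCF1, which processes ribosomal RNA, had 0.66 ± 0.13 and 0.54 ± 0.13. FCF1 had 1 low library, 40.8 CPM beside 61.9 and 64.4 CPM in IFNγ-treated shCTRL cells.

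Smaller differences were seen for the transcription factor YY1 (0.38 with IFNγ and 0.41 untreated), for MNAT1, an assembly factor of the kinase that activates cyclin-dependent kinases (0.42 and 0.39), and for the splicing factor PRPF39 (0.25 and 0.23). DICER1, which cuts precursors of small RNAs, had 0.19 and 0.21, the retinoblastoma-binding protein ARID4A 0.22 and 0.10, and the forkhead factor FOXN3 0.34 and 0.17. The ARID4A values were 0.13 with IFNγ without the first shCTRL library and 0.07 untreated without the first shINCA1 library, and FOXN3 was at 0.11 untreated without the second shINCA1 library. MAX, the partner of MYC, had 0.33 and 0.51.

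ZFP36L1, which binds AU-rich elements and speeds the decay of messenger RNAs, stood apart from the other members. It had 9.32, 18.0 and 11.4 CPM in IFNγ-treated shINCA1 cells, against 28.6, 17.4 and 57.2 CPM in IFNγ-treated shCTRL cells. In untreated cells it had 8.45, 36.4 and 18.3 CPM in shINCA1 and 28.1, 13.1 and 59.9 CPM in shCTRL. Untreated shCTRL libraries alone spanned more than the gap between the line means, and the groups overlapped in both treatments. Within each line the ZFP36L1 libraries had the same order by replicate number in both treatments. Its log2 difference was -1.42 ± 0.63 with IFNγ and -0.68 ± 0.61 untreated. Single libraries set these values. With IFNγ it was -0.83 without the third shCTRL library and -1.73 without the second. Untreated it was 0.03 without the third shCTRL library, -1.07 without the second, -0.31 without the first shINCA1 library and -1.32 without the second.

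The 9 genes of the cytoskeleton and transport had a median of 0.34 with IFNγ and 0.35 untreated. KTN1, which anchors kinesin to the endoplasmic reticulum and had the highest level in CPM of the 48 genes, averaged 988 ± 27.9 CPM in IFNγ-treated shINCA1 cells and 577 ± 3.95 CPM in IFNγ-treated shCTRL cells (SD, n = 3 each). Its fold was 1.71 with IFNγ and 1.77 untreated. ACTN1, which crosslinks actin, averaged 463 ± 7.42 CPM in IFNγ-treated shINCA1 cells and 376 ± 6.77 CPM in IFNγ-treated shCTRL cells, at a fold of 1.23, against 1.18 untreated. NIN, a centrosomal anchor of microtubules, had log2 differences of 0.46 in both treatments, KLC1, a kinesin light chain, 0.44 and 0.47, and EVL, which extends actin filaments, 0.34 and 0.28.

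At the low end of this group were a pair of microtubule proteins. DLGAP5, which stabilises the mitotic spindle, had 115, 112 and 118 CPM in IFNγ-treated shINCA1 cells and 117, 121 and 120 CPM in IFNγ-treated shCTRL cells. Untreated, it had 122, 126 and 127 CPM in shINCA1 cells and 113, 122 and 125 CPM in shCTRL cells. The log2 difference was -0.06 ± 0.04 and 0.06 ± 0.04, the untreated one 0.01 without the first shCTRL library. EML1, a microtubule-binding protein, had 49.7, 48.5 and 49.0 CPM in IFNγ-treated shINCA1 cells, all below the 57.8, 55.4 and 53.5 CPM of IFNγ-treated shCTRL cells. Untreated, it had 40.6, 42.4 and 41.1 CPM in shINCA1 cells and 41.5, 43.5 and 43.1 CPM in shCTRL cells, which overlapped.

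Uniformity across treatments was tested directly as the difference of IFNγ responses, shINCA1 minus shCTRL, which is the same contrast as the line difference with IFNγ minus that without. For 32 members this difference lay within 0.1 of 0 on the log2 scale and for 44 within 0.2. Of all 15769 tested genes, 7669 lay within 0.1 and 10690 within 0.2. The median size of the difference, regardless of sign, was 0.0645 over the 48 genes and 0.105 over all tested genes. The median standard error was also smaller for the 48 genes, at 0.0756 against 0.109. Over the 282 other tested genes between PRPF39 and JAG2 the median size was 0.103, at a median standard error of 0.101, and 140 lay within 0.1. How far precision sets these sizes was not tested. The signed median was 0.02, and the SD over the 48 genes was 0.148, or 0.0988 without ZFP36L1. The line differences with and without IFNγ, which share no libraries, had Pearson's r of 0.967 and Spearman's rho of 0.97 over the 48 genes. These correlations run across genes, which are not independent replicates.

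Under edgeR's quasi-likelihood test with Benjamini-Hochberg adjustment, 0 of the 48 genes passed for the difference of responses, where 1.71% of all tested genes did in either direction. At an unadjusted p under 0.05 there were 4, PRKCH, TDP1, EML1 and MAX, where 11.4% of all tested genes were. DESeq2 also called 0, and its 4 at an unadjusted p under 0.05 were ARF6, EML1, MAX and DLGAP5, so that EML1 and MAX were in both sets. By edgeR the difference was 0.29 ± 0.12 for PRKCH, 0.14 ± 0.06 for TDP1, -0.13 ± 0.05 for EML1 and -0.17 ± 0.07 for MAX, with edgeR adjusted p between 0.329 and 0.369. A p that misses the threshold does not show that the responses were equal, and the median standard error of 0.0756 sets the size that could be seen.

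The IFNγ responses of the 48 genes centred near 0. The median log2 response was 0.00 in shINCA1 cells and -0.02 in shCTRL cells, against 0.00 and -0.01 over all tested genes, and 32 and 28 members lay within 0.1 of 0, as did 8342 and 7105 of all 15769 tested genes. With edgeR's adjusted p of at most 0.05, 6 members rose and 1 fell in shINCA1 cells, where 6.13% of all tested genes rose and 2.95% fell. In shCTRL cells 6 rose and 5 fell, where 9.72% of all tested genes rose and 7.51% fell. The same 6 genes rose in both lines: MAX, ARF6, EML1, DYNC1H1, TMX1 and FUT8.

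ARF6 had 223, 220 and 218 CPM in IFNγ-treated shINCA1 cells, against 175, 173 and 171 CPM in untreated shINCA1 cells. In shCTRL cells it had 127, 125 and 129 CPM with IFNγ and 94.3, 96.9 and 92.5 CPM untreated. Neither pair of groups overlapped, and the log2 response was 0.35 ± 0.03 in shINCA1 cells (edgeR adjusted p = 2.36e-06) and 0.43 ± 0.03 in shCTRL cells (edgeR adjusted p = 2.31e-07). The untreated shINCA1 libraries already lay above the IFNγ-treated shCTRL libraries for this gene.

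MAX had 59.3, 58.1 and 57.5 CPM in IFNγ-treated shINCA1 cells and 46.1, 44.8 and 46.3 CPM in untreated shINCA1 cells. With IFNγ shCTRL cells had 47.1, 43.5 and 48.2 CPM, against 33.5, 30.2 and 32.9 CPM untreated. Both lines thus rose without overlap, by 0.35 ± 0.05 in shINCA1 and 0.52 ± 0.05 in shCTRL cells, with edgeR adjusted p of 0.000429 and 8.82e-06. EML1 rose by 0.25 ± 0.04 and 0.38 ± 0.04, TMX1 by 0.17 ± 0.03 and 0.23 ± 0.03, and FUT8 by 0.20 ± 0.03 and 0.21 ± 0.04, giving shINCA1 first in each case. DYNC1H1, the heavy chain of the dynein motor, rose by 0.33 ± 0.08 and 0.34 ± 0.08, but its libraries were more scattered. Its call was lost in shINCA1 cells without the first or the third untreated or the second or the third IFNγ-treated shINCA1 library (log2 0.27 to 0.30, edgeR adjusted p up to 0.119). In shCTRL cells it was lost without the first or second untreated or the second IFNγ-treated shCTRL library (0.27 to 0.30, edgeR adjusted p up to 0.0686).

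DAAM1, a formin that links Wnt polarity signals to actin, was the 1 member past the threshold as falling in both lines. It had 24.6, 22.9 and 22.5 CPM in IFNγ-treated shINCA1 cells, against 29.7, 31.9 and 31.1 CPM in untreated shINCA1 cells. In shCTRL cells it had 14.9, 15.2 and 17.1 CPM with IFNγ and 23.9, 22.7 and 22.9 CPM untreated. The groups did not overlap within either line, and the log2 response was -0.41 ± 0.06 in shINCA1 cells (edgeR adjusted p = 0.000708) and -0.56 ± 0.06 in shCTRL cells (edgeR adjusted p = 3.26e-05). The difference of these responses, 0.15 ± 0.08, did not pass, with an edgeR adjusted p of 0.554.

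In shCTRL cells JAG2 fell by 0.53 ± 0.12 on the log2 scale and PRKCH fell by 0.49 ± 0.09, with edgeR adjusted p of 0.0115 and 0.00201. The shINCA1 values were -0.28 ± 0.12 for JAG2 and -0.21 ± 0.08 for PRKCH and did not pass. SOS2 passed in neither line, at -0.18 ± 0.05 in shINCA1 and -0.17 ± 0.05 in shCTRL cells (edgeR adjusted p = 0.0557 and 0.0524). TDP1 and BAG5 fell in shCTRL cells by 0.14 ± 0.04 and 0.13 ± 0.04 with edgeR adjusted p of 0.0377 and 0.0452. Neither call was firm. TDP1 did not pass without the first or second untreated, the first or the third IFNγ-treated shCTRL or the second untreated shINCA1 library (log2 -0.16 to -0.13, edgeR adjusted p up to 0.116). BAG5 did not pass without the second or the third untreated shCTRL library, any IFNγ-treated shCTRL library, the second untreated shINCA1 library or the first or the third IFNγ-treated shINCA1 library (-0.15 to -0.11, edgeR adjusted p up to 0.128). The count of 5 became 3 (JAG2, PRKCH and DAAM1) without the second untreated or the first IFNγ-treated shCTRL library.

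The number that fell also followed the scaling between libraries. With upper-quartile factors 6 members rose and 10 fell in shCTRL cells, and over all tested genes 1201 rose and 1970 fell, against 1532 and 1184 with the scaling used here. In shINCA1 cells 3 members fell with upper-quartile factors or DESeq2 size factors, DAAM1 with SOS2 and DLGAP5, while 6 rose under both. All tested genes then split into 815 that rose and 733 that fell with upper-quartile factors and 869 and 565 with DESeq2 size factors, against 967 and 465. Without the first untreated shINCA1 library the 3 that fell in shINCA1 cells were DAAM1, SOS2 and PRKCH, and without the first untreated shCTRL library they were DAAM1 and DLGAP5. The 6 that rose were 6 under each scaling tried.

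**Figure D3:**
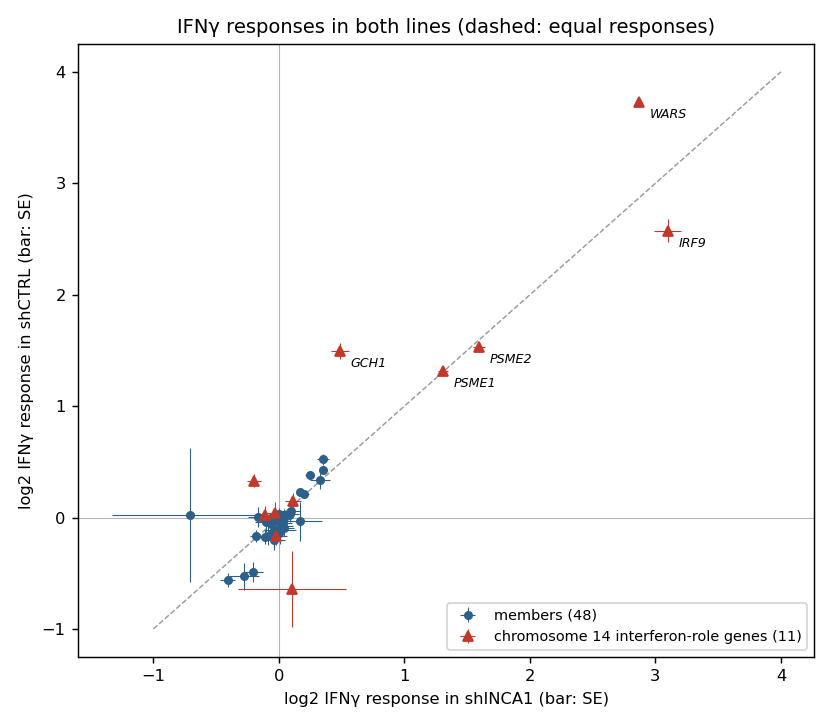
Log2 IFNγ response in shINCA1 cells (horizontal axis) and in shCTRL cells (vertical axis) for the 48 genes (blue circles) and for 11 interferon-role genes of chromosome 14 (red triangles); bars are standard errors and the dashed line marks equal responses. The 48 genes lie within 0.6 of 0 in shCTRL cells, while WARS, IRF9, PSME1, PSME2 and GCH1 respond far more and GCH1 and WARS lie above the dashed line.

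Genes of the same chromosome with interferon roles ranged from large responses to none past the threshold. IRF9, an interferon regulatory factor that binds the ISRE, had a log2 response of 3.10 ± 0.11 in shINCA1 cells and 2.57 ± 0.10 in shCTRL cells. The proteasome activator subunits PSME1 and PSME2 had 1.31 ± 0.04 and 1.59 ± 0.05 in shINCA1 cells, against 1.32 ± 0.04 and 1.53 ± 0.05 in shCTRL cells. IFI27, a protein of mitochondria induced by interferons, had 26, 23 and 12 counts in IFNγ-treated shINCA1 libraries, against 0, 0 and 15 counts in untreated ones, a ratio of 4.69 (95% exact interval 2.63 to 8.88, counting error only) that rests on 1 untreated library. In shCTRL libraries it had 63, 60 and 49 counts with IFNγ and 0 in each untreated library, at least 18.1-fold higher against a floor of 3 counts per library. The list of 12 had a median response of 0.30 in shINCA1 cells and 0.82 in shCTRL cells, which IFI27 at its bound or ratio would not move, since it lies above the median either way. In shINCA1 cells 5 rose and TNFAIP2 fell, while 7 rose in shCTRL cells. NFKBIA, LGALS3, IFI27L1, IFI27L2 and SERPINA3 passed in neither line. Their log2 responses, shINCA1 first, were 0.11 and 0.15 for NFKBIA, -0.03 and -0.16 for LGALS3, and -0.03 and 0.04 for IFI27L1. IFI27L2 had -0.11 and 0.02, and SERPINA3 had 0.11 ± 0.43 and -0.64 ± 0.34.

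Position along the chromosome was then compared with the other tested genes of chromosome 14, in RefSeq order. The 282 other tested genes between PRPF39 and JAG2 had a median line difference of 0.52 with IFNγ and 0.57 untreated, and 87.9% and 88.7% of them were above 0. The 143 tested genes before PRPF39 had medians of 0.04 and 0.01, and the 10 after JAG2 had 0.77 and 0.70. Running from the centromere, the median of 25 consecutive genes in untreated cells first passed 0.25 where it was centred on AP4S1, which lies before PRPF39. Where it was centred before PRPF39, the running median reached up to 0.60 with IFNγ and 0.57 untreated. Between PRPF39 and JAG2 this running median stayed between 0.38 and 0.88 with IFNγ and between 0.28 and 0.83 untreated.

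**Figure D4:**
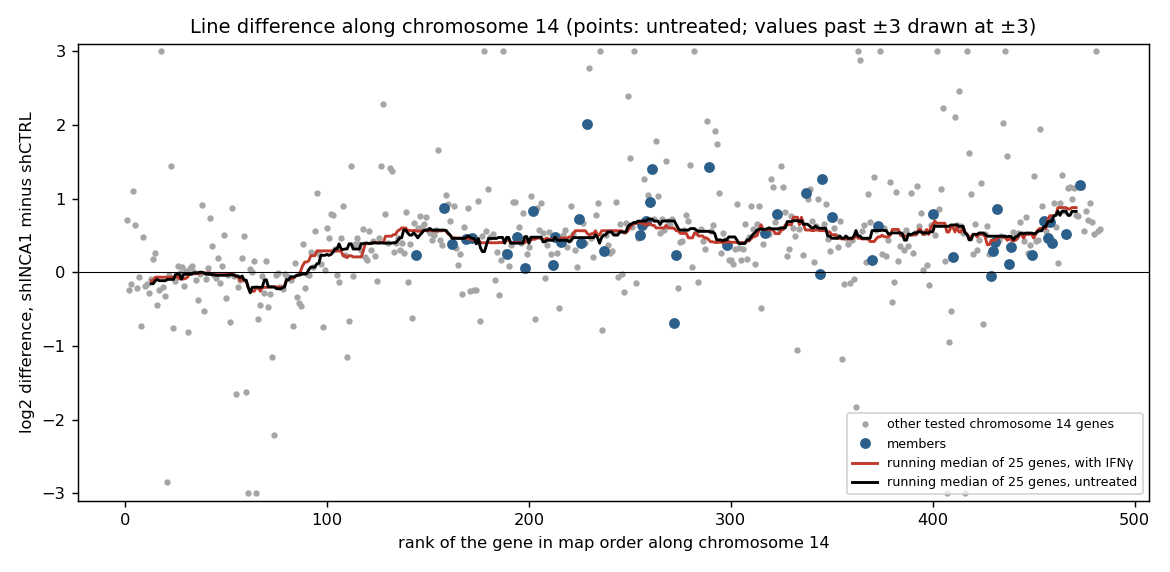
Log2 difference, shINCA1 minus shCTRL, of the 483 tested chromosome 14 genes against their rank in map order; points are untreated values (blue, the 48 genes; grey, other genes, drawn at 3 or -3 where they lie beyond) and lines are running medians of 25 genes with IFNγ (red) and untreated (black). The running medians lie near 0 at the left, rise before PRPF39, and lie above 0.25 from PRPF39 to JAG2.

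Each of the 48 genes was also set beside the 5 nearest tested genes on either side that are not members. Other members were skipped, so adjoining members can share the same neighbours. The median of these neighbours was above 0 for all 48 genes in both treatments, from 0.09 to 1.05 with IFNγ and from 0.01 to 1.04 untreated. With IFNγ 27 members lay within 0.3 of their neighbours' median and 28 did untreated. PRKCH exceeded its neighbours most, by 1.69 with IFNγ and 1.53 untreated, and MAP3K9 exceeded its own by 0.67 and 0.81. ZFP36L1 lay below its neighbours by most, at -2.00 and -1.29, and the next 3 in both treatments, in differing order, were EML1 (-0.76 and -0.62), POMT2 (-0.56 and -0.66) and DLGAP5 (-0.55 and -0.66). The members nearest 0 thus lay among genes that were higher in shINCA1 cells.

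Across chromosomes, the median over all tested genes of chromosome 14 was 0.45 with IFNγ and 0.46 untreated (483 genes), the highest of any chromosome plotted. Chromosome 6 lay farthest below 0, at -0.63 and -0.60 over 812 genes, chromosome 15 was at 0.24 and 0.23, and chromosome 20 at 0.19 and 0.20. Other autosomes and X lay between -0.13 and 0.15.

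**Figure D5:**
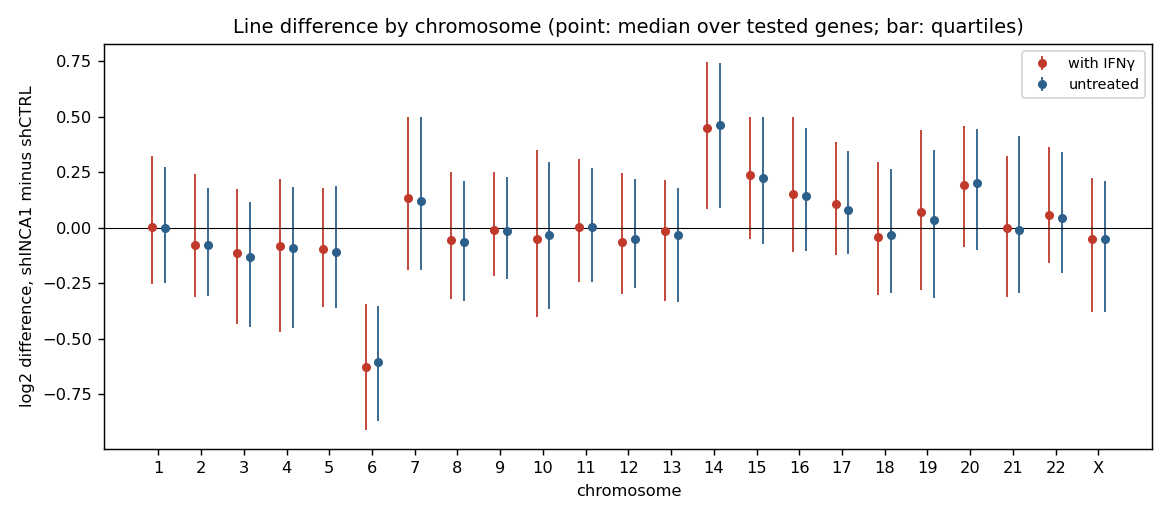
Median (points) and quartiles (bars) of the log2 difference, shINCA1 minus shCTRL, over the tested genes of each chromosome, with IFNγ (red) and untreated (blue). Chromosome 14 is highest at 0.45 and 0.46, and chromosome 6 is lowest at -0.63 and -0.60.

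Relatives of the 48 genes on other chromosomes had a median line difference below 0. For 31 members 38 relatives of the same family were tested, and this median was -0.26 with IFNγ and -0.19 untreated. The member was the higher of the pair in both treatments in 35 of the 38 pairs, with a median gap of 0.672 averaged over the treatments. The 3 other pairs were ZFP36L1 with ZFP36, ZFP36L1 with ZFP36L2, and EML1 with EML4. The widest gap was between the Notch ligands, with JAG2 at 1.44 and 1.19 and JAG1 on chromosome 20 at -1.33 and -1.35. SPTLC2 at 0.77 and 0.76 stood beside SPTLC3, also on chromosome 20, at -2.13 and -1.58, while SPTLC1 on chromosome 9 was at -0.07 and -0.01. PRKCE, another protein kinase C on chromosome 2, was at -0.33 and -0.31, against 2.31 and 2.02 for PRKCH. Several relatives nonetheless moved the same way as the member, among them ARF5 on chromosome 7 at 0.37 and 0.33 beside ARF6 at 0.79 and 0.87. The relatives were picked by family with earlier results of these data known, and the gap is a description.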

How the data were processed

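Poly(A) RNA of U251 cells was sequenced in 12 libraries with a stranded messenger RNA kit, per the labels' protocols. The deposited table holds estimated counts per gene symbol, whole numbers not scaled between libraries. FastQC, Trimmomatic, HISAT2, StringTie and build hg19 were used per the submitters' processing notes; versions, how reads were counted and whether by strand were not given in the sources used here, and overlapping or antisense genes may therefore share reads. The value 3 occurs 5790 times and 6 occurs 4120 times, more than 2 (2186) or 4 (1317), so counting intervals are too narrow.

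Groups follow the titles and treatment labels. Of 27685 genes, 15769 passed edgeR's filterByExpr. Counts were fitted with edgeR 4.0.16 in R 4.3.3 (TMM factors, glmQLFit, 1 coefficient per group, all 12 libraries; common biological coefficient of variation 10.6%) and tested two-sided with glmQLFTest, Benjamini-Hochberg adjustment over all tested genes and a threshold of 0.05. DESeq2 1.42.0 was an alternative. Standard errors are the log2 change over the square root of F. Replicates differed by more than sampling noise (chi-square per degree of freedom 15.8 to 26.8).

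The members and all gene lists were chosen with earlier results of these data known. Named genes were the 6 highest and 6 lowest line differences, those passing an IFNγ test, the 3 highest and lowest levels, and the interferon-role list; others are named by role. Symbols were matched to RefSeq (GRCh38.p14) for chromosome and order only, 25433 by symbol and 1237 by synonym of 27683; 1013 were not matched.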

Additional observations from a re-analysis of the deposited data

Results flagged for a closer look

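The 48 genes gave no difference of responses past the threshold, which 1.71% of all tested genes passed in either direction. Of the interferon-role genes of chromosome 14, 3 had an IFNγ response that differed between the lines by edgeR's test of the difference itself. GCH1, the enzyme that starts tetrahydrobiopterin synthesis, had 17.4, 18.7 and 19.1 CPM in IFNγ-treated shINCA1 cells and 13.7, 12.2 and 13.5 CPM in untreated ones, against 18.0, 19.8 and 19.3 CPM with IFNγ and 6.74, 7.23 and 6.26 CPM untreated in shCTRL cells. Its log2 response was 0.49 ± 0.07 in shINCA1 and 1.50 ± 0.07 in shCTRL cells, a difference of -1.01 ± 0.10 (edgeR adjusted p = 0.000276). The lines were at like levels with IFNγ and apart without it. WARS, the tryptophanyl-tRNA synthetase, responded by 2.87 ± 0.02 in shINCA1 and 3.73 ± 0.02 in shCTRL cells, a difference of -0.861 (edgeR adjusted p = 1.38e-07). TNFAIP2, induced by tumour necrosis factor, responded by -0.20 ± 0.06 in shINCA1 and 0.33 ± 0.06 in shCTRL cells, a difference of -0.532 (edgeR adjusted p = 0.00461). Its own fall in shINCA1 cells (edgeR adjusted p = 0.0429) was lost when any of 8 single libraries was left out, with edgeR adjusted p up to 0.129. For all 3 genes the untreated shINCA1 level was above the untreated shCTRL level, by 0.96, 0.43 and 1.31 on the log2 scale, as for most of the 48 genes. With IFNγ the line differences were -0.05 for GCH1, -0.43 for WARS and 0.78 for TNFAIP2, each lower than untreated. The median of the 48 genes was 0.53 with IFNγ and 0.47 untreated.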

How the results depend on the processing

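Line differences kept their sign under every alternative run except for untreated POMT2 (-0.02; 0.00 with upper-quartile factors, 0.01 with the 5 CPM filter and 0.03 without the second untreated shINCA1 library) and untreated ZFP36L1 (0.03 without the third untreated shCTRL library). The number that fell with IFNγ in shCTRL cells, 5, became 2 at an adjusted p of 0.01, 3 without the count filter and 10 with upper-quartile factors, and was 3 to 6 with 1 library left out. The 1 that fell in shINCA1 cells became 3 with DESeq2 size factors, upper-quartile factors, a filter of 5 CPM in 3 libraries or the DESeq2 Wald test, and was 1 to 3 with 1 library left out. EML1, the 1 member past the threshold as lower in shINCA1 cells with IFNγ, was joined by ZFP36L1 (2) when only the groups compared were fitted, and the count was 1 to 2 with 1 library left out. The median line difference with IFNγ, 0.53, was 0.57 with upper-quartile factors and 0.55 with the 5 CPM filter, and 0.48 to 0.57 with 1 library left out. The cause was not tested. With the replicate number as a block, the number that fell in shINCA1 cells was 2 and the median line difference with IFNγ was 0.54, and no other count for the 48 genes moved by over 1.5 times. Same-numbered libraries of different groups had deviations correlated at -0.0358 to 0.0671 in 18 pairs, so no pairing by number was seen over all tested genes. Whether single genes follow the number was not tested. Within each line, ZFP36L1 libraries had the same order by number in both treatments. The difference of responses gave 0 calls under every setting. Of single-gene values, 1406 kept their side of the threshold or stayed within 1 SD, 18 moved, 34 lost a call and 6 gained one. Pseudocount alternatives were not run because the table holds counts. Leaving out 1 library leaves 2 in its group, so lost calls there also reflect fewer samples. With 3 libraries a group, a log2 response of 0.1 is about 2 of the median standard errors.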
